A study of Prunus dulcis with 36 samples.

Results

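Abnormal and normal fruits of almond (*Prunus dulcis*, cultivar 'ZhiPi') were compared at 32 days after flowering (DAF), over all 8676 unigenes for which both groups have a deposited value, which are also the 8676 unigenes of the whole series. A unigene is a transcript assembled from the reads without a genome, and it carries an ID such as DN24026_c1_g1. Both groups are fruitlets of this cultivar, taken in the field from the same branches, and the labels give no treatment for either. The abnormal fruits were atrophied fruits in arrested growth, described by the study as those with the greatest chance of dropping soon, and the normal fruits at 32 DAF were developing normally. Each group has 3 of the 36 samples, which cover 6 stages from 12 to 37 DAF, and each replicate mixed pieces of several whole fruits of a tree, so seed, stone and flesh were measured together. The methods call the replicates biological and state that the sequenced samples came from 3 independent trees. Whether they are separate libraries was not settled here. The deposited value is the authors' mean over the replicates, 1 per unigene and group, in FPKM, a read measure scaled to the length of the transcript and the size of the library. No spread between replicates was available, so none of the differences carries a test, an error or a P-value. In whole fruits, fewer cells of a type and less RNA per cell cannot be told apart.

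Fruit shedding takes place at the abscission zone, where enzymes such as polygalacturonases dissolve the pectin that holds neighbouring cells together. Auxin delivered by a growing fruit holds this process back, and ethylene and abscisic acid promote it. Inside a stone fruit, the young endocarp later hardens into the stone as its walls are thickened and lignified, and secreted class III peroxidases are among the enzymes that couple lignin and cross-link walls.

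At 32 DAF, 831 unigenes (9.58% of those listed) were higher and 548 (6.32%) were lower in abnormal than in normal fruits, with a log2 difference in FPKM + 1 above 1 in size, the fold threshold of the study's methods. Adding 1 before the logarithm shrinks the differences of weakly expressed unigenes. Of the higher unigenes, 570 were listed at 0 in normal fruits, and of the lower ones, 335 were listed at 0 in abnormal fruits. Above 0 in both groups were 261 of the higher and 213 of the lower unigenes. The threshold is crowded, with 157 unigenes between 1 and 1.1 in size and 185 between 0.9 and 1. A difference larger than 2 was found for 329 higher and 213 lower unigenes.

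The excess of higher unigenes was largest at low expression. With a mean of the 2 groups of at most 1 FPKM, 175 were higher and 90 lower among 1030 unigenes, and between 1 and 5 FPKM, 409 were higher and 231 lower among 1688. Between 20 and 100 FPKM the numbers were 73 higher and 72 lower among 1166 unigenes. Above 100 FPKM, 13 were higher and 27 lower among 440. The median difference over the 4417 unigenes above 0 in both groups was 0.11, and scaling by the median of their ratios, which removes a shift of 0.13, left 746 higher and 606 lower. The sums of the listed unigenes were 294817 FPKM in abnormal fruits against 304289 FPKM in normal fruits, a shift of −0.05 in the other direction. Which of these shifts belongs to the fruits and which to the normalization was not tested.

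**Figure D1:**
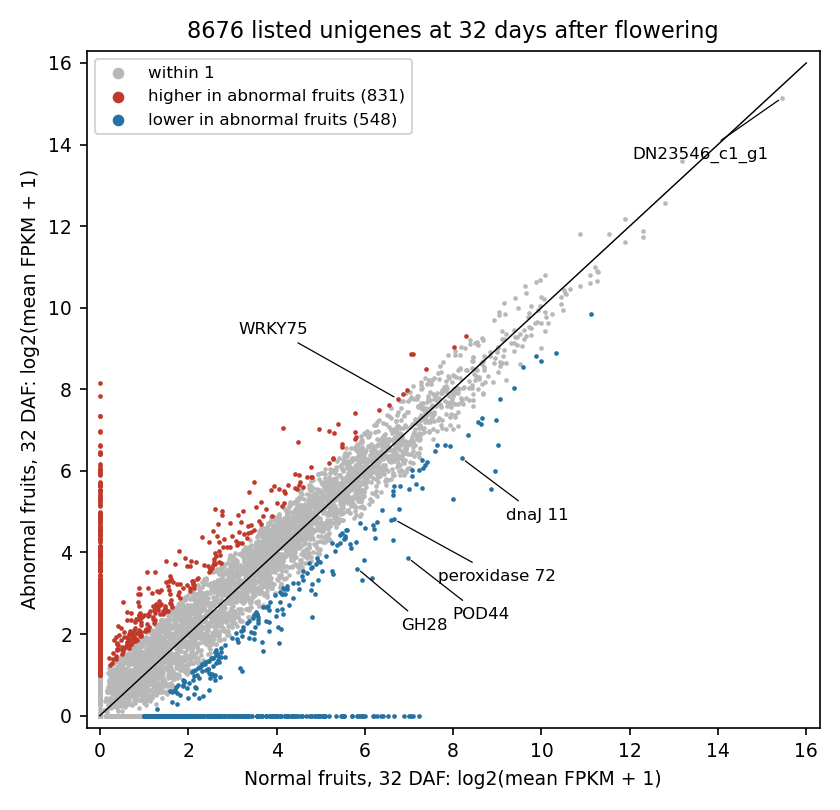
Mean FPKM of the 8676 listed unigenes at 32 DAF on a log2(FPKM + 1) scale, with abnormal fruits on the vertical and normal fruits on the horizontal axis. Each point is 1 unigene, the line marks equal values, and points on an axis are listed at 0 in the other group. The 831 higher unigenes gather at low values, while the lower ones include peroxidase POD44 at 13.6 FPKM in abnormal fruits against 125 FPKM in normal fruits.

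Of the 25 unigenes that the study names with their IDs, 0 were higher and 3 were lower in abnormal fruits by more than 1 at 32 DAF. These are 0% and 12.0% of the 25, against 9.58% higher and 6.32% lower of all listed unigenes, which would be 2.39 and 1.58 of 25, so the counts lie close to the shares over all unigenes. Another 19 lay within 1, and 3 were listed at 0 in both groups. Below 0 were the differences of 18 of the 25, above 0 those of 4, and the median was −0.19, against 0 over all 8676 unigenes. Over those above 0 in a group, the median was −0.27 for 22 of the 25, against 0.15 for 5615 of all listed unigenes. The study chose the 25 unigenes on the same samples, so their count is no independent evidence of a direction. The 3 unigenes past the threshold are peroxidase POD44, a pectin-degrading glycosyl hydrolase of family 28 (GH28) and a gibberellin-regulated protein 11-like. Their forward RT-qPCR primers are printed because they tie these unigenes, which have only assembly IDs, to a stretch of sequence, and each is given 5′ to 3′ as the study designed it.
DN24026_c1_g1 (POD44): atctgaaaaatcggcaggacc
DN20503_c0_g2 (GH28): agtgaaagcaaatggcaaac
DN26787_c1_g1 (gibberellin-regulated protein 11-like): ctttcaacaggaggtgcggt

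**Figure D2:**
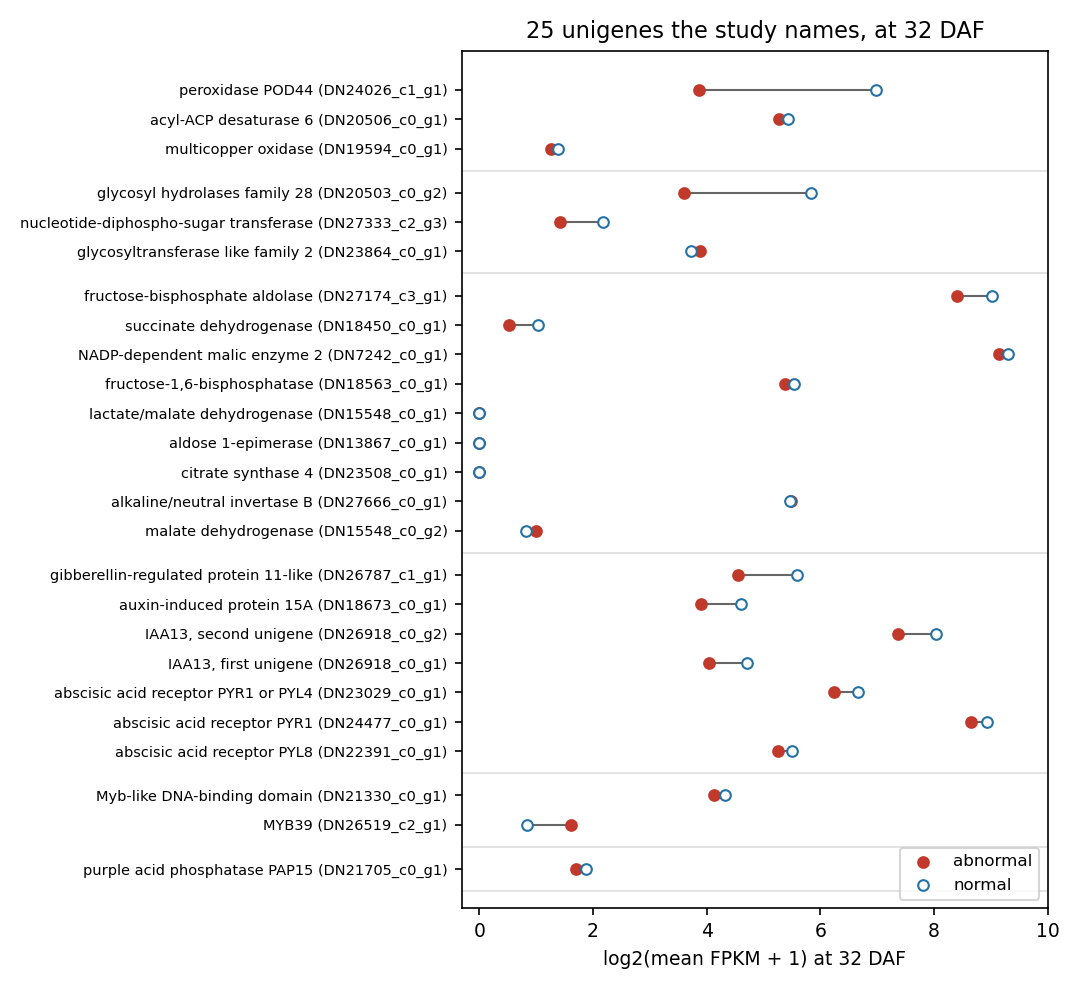
The 25 unigenes named by the study, in groups by role, with log2(mean FPKM + 1) at 32 DAF on the horizontal axis. Filled points are abnormal and open points normal fruits, and where they coincide the open point covers the filled one. POD44 and GH28 have the widest gaps, −3.11 and −2.23, and the 3 unigenes at the left edge are listed at 0 in both groups.

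POD44 (DN24026_c1_g1), a class III peroxidase, had 13.6 FPKM in abnormal fruits against 125 FPKM in normal fruits, a log2 difference of −3.11. Among the 4417 unigenes above 0 in both groups, only DN27529_c3_g1 was lower by more. Abnormal fruits had 3.08 FPKM of it at 27 DAF, and later, at 37 DAF, 68.3 FPKM. For normal fruits the values at these stages were 6.44 and 120.2 FPKM. Both fruit types thus had their highest POD44 values at the last stages, 37 DAF in abnormal fruits and 32 DAF in normal fruits.

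GH28 (DN20503_c0_g2), a member of the family that holds the polygalacturonases, had 11.2 FPKM in abnormal fruits against 56.0 FPKM in normal fruits (−2.23). Its order turned at 37 DAF, with 32.3 FPKM in abnormal fruits against 16.6 FPKM in normal fruits (0.92), and at 17 DAF it was 53.1 FPKM in abnormal fruits against 1.03 FPKM in normal fruits (4.73). The gibberellin-regulated protein 11-like (DN26787_c1_g1), a small cysteine-rich protein of a family induced by gibberellin, had 22.4 FPKM in abnormal fruits against 47.1 FPKM in normal fruits (−1.04). It lay in the same direction at both neighbouring stages, with 21.0 FPKM in abnormal fruits against 42.7 FPKM in normal fruits at 27 DAF (−0.99), while the values at 37 DAF were 60.5 and 208 FPKM in abnormal and normal fruits (−1.76). Scaling both columns to the same total put it just within the threshold.

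The remaining hormone unigenes of the study were all within 1 and all below 0. Auxin-responsive protein IAA13, a repressor of auxin response, is represented by DN26918_c0_g2 with 164 FPKM in abnormal fruits against 262 FPKM in normal fruits (−0.67). Its other unigene, DN26918_c0_g1 of the same assembly component, had 15.4 against 25.0 FPKM (−0.66). Auxin-induced protein 15A (DN18673_c0_g1) had 14.0 FPKM in abnormal fruits against 23.5 FPKM in normal fruits (−0.71). The 3 abscisic acid receptor unigenes had smaller differences, from −0.43 for DN23029_c0_g1 to −0.25 for DN22391_c0_g1.

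Central carbon metabolism showed small differences among the unigenes the study named. The farthest was fructose-bisphosphate aldolase (DN27174_c3_g1), a glycolytic enzyme, with 340 FPKM in abnormal fruits against 515 FPKM in normal fruits (−0.60). Alkaline/neutral invertase B (DN27666_c0_g1), which splits sucrose, had 43.7 against 43.2 FPKM (0.02), and NADP-dependent malic enzyme 2 (DN7242_c0_g1) had 566 against 632 FPKM (−0.16). Fructose-1,6-bisphosphatase (DN18563_c0_g1), of gluconeogenesis and sucrose synthesis, had 40.7 FPKM in abnormal fruits against 45.3 FPKM in normal fruits (−0.15). The lactate/malate dehydrogenase DN15548_c0_g1, whose best protein hit is in a red alga, citrate synthase 4 (DN23508_c0_g1) and aldose 1-epimerase (DN13867_c0_g1) were listed at 0 in both groups. The transcription factor MYB39 (DN26519_c2_g1) was the unigene of the 25 with the highest difference, at 2.07 FPKM in abnormal fruits against 0.801 FPKM in normal fruits (0.77).

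Names for other unigenes came from the first entries of the study's annotation tables, which are held only in part. They cover 753 of the 8676 listed unigenes, 464 of them with a Swiss-Prot protein name. Among these 753 unigenes, abnormal fruits had 63 higher and 58 lower. The tissue label was not checked against marker genes of seed, stone and flesh, of which these names hold no full set. The functional lists were formed by searching these names, and a unigene can stand in more than 1 list. The counts of each list are to be read against the 9.58% higher and 6.32% lower of all listed unigenes, which would be 1.34 higher and 0.884 lower in a list of 14.

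**Figure D3:**
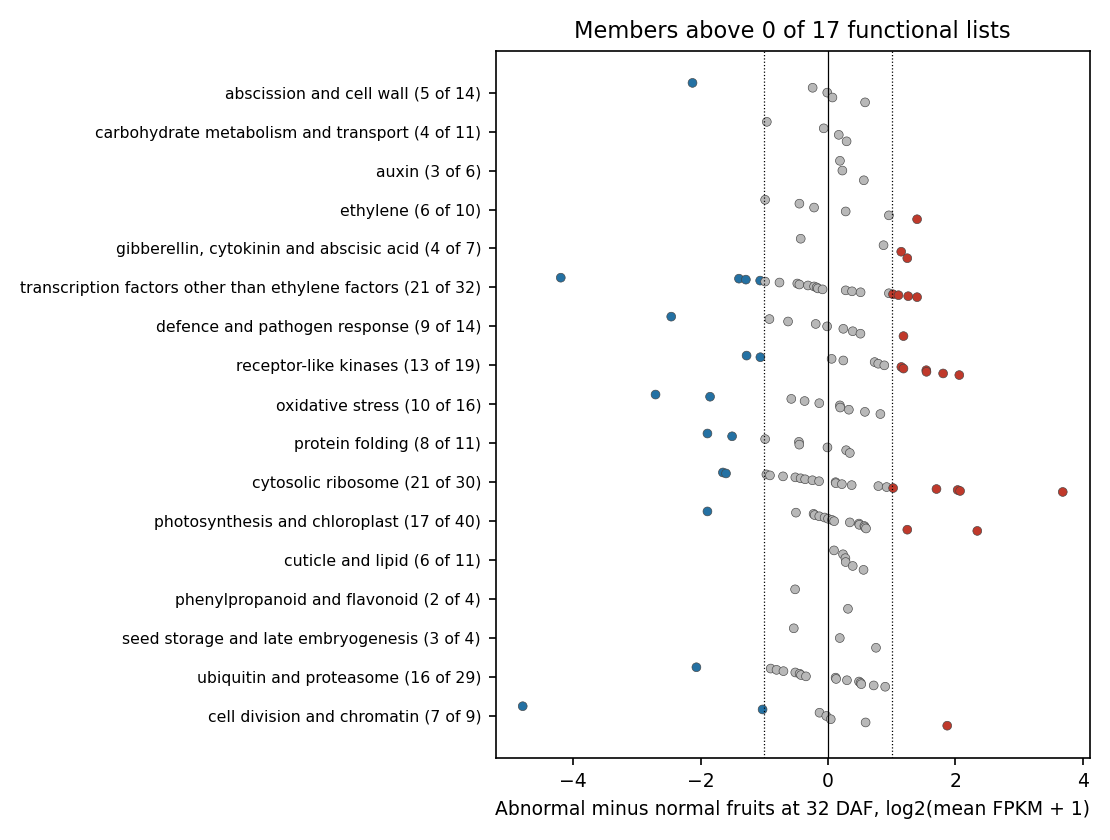
Differences between abnormal and normal fruits at 32 DAF in log2(mean FPKM + 1) for the members of 17 functional lists that were above 0 in a group, with their number of all members in brackets. Each point is 1 unigene, colour marks those past the dotted lines at −1 and 1, and for members at 0 in 1 group the position depends on the added 1. The receptor-like kinases have 6 points past the upper line and 2 past the lower one.

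Peroxidases and other redox proteins (16 unigenes, 10 above 0) had 0 members higher and 2 lower. Peroxidase 72 (DN18908_c0_g2), a class III peroxidase that takes part in lignification in *Arabidopsis*, had 27.1 FPKM in abnormal fruits against 100.4 FPKM in normal fruits (−1.85). It was lower in abnormal fruits at 27 DAF too, with 8.83 against 55.1 FPKM (−2.51), and at 37 DAF, with 66.8 against 668 FPKM (−3.30). Only 10 of the 8676 unigenes were lower by more than 1 at all 3 of these stages, and 13 were higher. The other lower member was a Cu-Zn superoxide dismutase, DN14603_c0_g2, at 0 in abnormal and 5.53 FPKM in normal fruits, whose best protein hit is in a yeast and not in a plant. Monothiol glutaredoxin-S2 (DN16099_c0_g1), a small redox protein, was the member with the largest difference upward, at 273 FPKM in abnormal fruits against 154 FPKM in normal fruits (0.82).

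Cell wall enzymes of the annotated part (14 unigenes, 5 above 0) had 1 member past the threshold. This was the polygalacturonase ADPG1 (DN15727_c0_g1), an enzyme of organ abscission and pod opening in *Arabidopsis*, listed at 0 in abnormal fruits and at 3.37 FPKM in normal fruits. It was also above 0 at 37 DAF, with 2.69 FPKM in abnormal fruits against 1.57 FPKM in normal fruits, and at 17 DAF in abnormal fruits, with 10.9 FPKM. Pectinesterase 31 (DN15673_c0_g1), which removes methyl groups from pectin, was the most abundant member and had 147 FPKM in abnormal fruits against 140.2 FPKM in normal fruits (0.07).

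Protein folding (11 unigenes, 8 above 0) had 0 members higher and 2 lower. Chaperone dnaJ 11 (DN9504_c0_g1), a small J-protein of the chloroplast that works with Hsp70, had 78.1 FPKM in abnormal fruits against 293 FPKM in normal fruits (−1.89). At 27 DAF it had 53.8 against 123 FPKM (−1.18), but at 37 DAF 199 FPKM in abnormal fruits against 159 FPKM in normal fruits (0.32). The other lower member, DN14598_c0_g1, is an Hsp70 with a fungal best hit, at 0 in abnormal and 1.84 FPKM in normal fruits. An almond Hsp70, DN27837_c1_g4, lay just within the threshold with 58.6 against 117 FPKM (−0.99). The abundant DnaJ homolog DN13967_c0_g1 had 1062 FPKM in abnormal fruits against 871 FPKM in normal fruits (0.29).

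Transcription factors (32 unigenes, 21 above 0, with ethylene-responsive factors that the search terms also caught) had 4 members higher and 4 lower. WRKY75 (DN26011_c0_g2), a factor of phosphate starvation and leaf senescence in *Arabidopsis*, had 216 FPKM in abnormal fruits against 106 FPKM in normal fruits (1.02). It was higher in abnormal fruits at all 6 stages, with 65.0 against 29.4 FPKM at 27 DAF (1.12). At 37 DAF it had 7.85 FPKM in abnormal fruits against 4.27 FPKM in normal fruits (0.75). The difference at 32 DAF was 0.89 after scaling by the median of ratios. Basic leucine zipper 43 (DN13517_c0_g1) had 11.1 FPKM in abnormal fruits against 4.62 FPKM in normal fruits (1.11), with 0.91 at 27 DAF and 0.98 at 37 DAF, and 0.99 at 32 DAF after the same scaling. The Myb-related protein Zm38 (DN13075_c0_g1) had 4.73 against 1.39 FPKM (1.26).

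Lower in abnormal fruits were a dehydration-responsive element-binding protein, 2 factors with a LOB domain and a Dof zinc finger protein. The first, DREB3 (DN15306_c0_g1), had 23.4 FPKM in abnormal fruits against 63.4 FPKM in normal fruits (−1.40). LOB domain-containing proteins act at the borders of lateral organs. LOB12 (DN16319_c0_g1) was listed at 0 in abnormal fruits against 17.3 FPKM in normal fruits, but its order was reversed at 27 DAF, at 6.73 FPKM in abnormal and 0 in normal fruits, and it was at 0 in all of the other groups. LOB15 (DN19385_c0_g1) had 1.72 against 5.65 FPKM (−1.29), and DOF3.5 (DN13986_c0_g1) had 1.25 against 3.70 FPKM (−1.06).

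Ethylene-related names (10 unigenes, 6 above 0) had 1 member higher and 0 lower, and the 6 above 0 were all ethylene-responsive transcription factors. CTR1 (DN12318_c0_g1), a kinase that represses ethylene signalling, and 1-aminocyclopropane-1-carboxylate synthase 6 (DN53364_c0_g1), of ethylene synthesis, were listed at 0 in both groups and have their best hits in the cabbage family. ERF098 (DN12621_c0_g1) had 6.92 FPKM in abnormal fruits against 2.00 FPKM in normal fruits (1.40), and it was higher in abnormal fruits at 27 DAF by 0.90. A pair of factors lay on opposite sides just within the threshold, RAP2-11 (DN13238_c0_g1) with 11.2 against 5.27 FPKM (0.96) and ERF021 (DN13125_c0_g1) with 4.63 against 10.2 FPKM (−0.99).

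The list for gibberellin, cytokinin and abscisic acid (7 unigenes, 4 above 0) had 2 members higher and 0 lower. Both were near the floor of the table. Protein phosphatase 2C 55 (DN15260_c0_g1) had 1.22 FPKM and ent-kaurene synthase (DN24508_c2_g2), an early enzyme of gibberellin synthesis, had 1.37 FPKM in abnormal fruits, and both were at 0 in normal fruits. Gibberellin 2-beta-dioxygenase 8 (DN24592_c0_g1), of a family that inactivates gibberellins, had 21.8 FPKM in abnormal fruits against 11.4 FPKM in normal fruits (0.87), and it was higher in abnormal fruits at all 6 stages, by 0.87 at 27 DAF and 0.50 at 37 DAF. In the auxin list (6 unigenes, 3 above 0), 0 members passed the threshold.

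Receptor-like kinases (19 unigenes, 13 above 0), which perceive signals at the cell surface, had 6 members higher (31.6%) and 2 lower (10.5%), against 9.58% and 6.32% of all listed unigenes, or 1.82 and 1.20 of 19. These 8 were weakly expressed, with at most 5.18 FPKM in either group. Among all unigenes with a mean between 1 and 5 FPKM, 24.2% were higher and 13.7% lower. With a mean of at most 1 FPKM, the shares were 17.0% and 8.74%. Those shares at low level leave out unigenes at 0 in both groups, while the 31.6% and 10.5% count such members. The 2 kinds of share are therefore not alike. Of the 13 members above 0, 6 were higher and 2 lower, and whether this exceeds the shares at their level was not tested. Of the higher members, DN13169_c0_g1 and DN13169_c0_g2 belong to the same assembly component, between whose unigenes reads can be divided. A CLAVATA1-like receptor kinase (DN10065_c0_g1) had 1.92 FPKM in abnormal fruits and was at 0 in normal fruits, and the LRR kinase DN25408_c0_g1 had 5.18 against 1.78 FPKM (1.15). The lower members were the ZmPK1-like kinase DN14650_c0_g1, with 1.17 FPKM in abnormal fruits against 4.26 FPKM in normal fruits (−1.28), and DN15061_c0_g1, at 0 against 1.09 FPKM. DN14650_c0_g1 was also lower at 27 DAF (−1.27) and at 37 DAF (−2.46). The summed level of the list was 27.3 FPKM in abnormal fruits against 12.6 FPKM in normal fruits, and with 5 in place of 1 as the added value none of the 8 stayed past the threshold.

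In the defence list (14 unigenes, 9 above 0), 1 member was higher and 1 lower. The higher one is DN16541_c0_g1, an L-type lectin kinase that the receptor list also counts, at 1.28 FPKM in abnormal fruits and 0 in normal fruits. The lower one, DN16203_c0_g1, is a methyltransferase that the search terms caught by a part of its name. Pathogenesis-related protein 1 (DN16394_c0_g1), a common marker of the salicylic acid response, was the most abundant member and had 193 FPKM in abnormal fruits against 194 FPKM in normal fruits (−0.01).

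The list for carbohydrate metabolism and transport (11 unigenes, 4 above 0) had 0 members past the threshold. A putative invertase inhibitor (DN14218_c0_g1) came closest, with 129.6 FPKM in abnormal fruits against 253 FPKM in normal fruits (−0.96), and −1.09 after scaling by the median of ratios. The sugar transporter SWEET12 (DN25084_c2_g5) had 10.3 against 8.20 FPKM (0.29). Cuticle and lipid (11 unigenes, 6 above 0), phenylpropanoid and flavonoid (4, with 2 above 0) and seed storage and late embryogenesis proteins (4, with 3 above 0) also had 0 members past the threshold in either direction.

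Ubiquitin and proteasome unigenes (29, with 16 above 0) had 0 higher and 1 lower, a proteasome subunit with a microbial best hit (DN13031_c0_g1, at 0 against 3.19 FPKM). Chloroplast proteins (40 unigenes, 17 above 0) had 2 higher and 1 lower, of which dnaJ 11 and ent-kaurene synthase are described above and the third, DN14070_c0_g2, has a fungal best hit and had 4.08 FPKM against 0. The RuBisCO-binding chaperonin subunit DN18145_c0_g1 had 259 FPKM in abnormal fruits against 300.0 FPKM in normal fruits (−0.21). Cell division and chromatin (9 unigenes, 7 above 0) had 1 higher and 2 lower. Cyclin-U4-1 (DN18093_c0_g1) had 17.7 FPKM in abnormal fruits against 37.2 FPKM in normal fruits (−1.03), and −0.98 with both columns scaled to the same total. The other members, DN14601_c0_g1 and DN23682_c5_g4, have microbial best hits.

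Cytosolic ribosomal proteins (30 unigenes, 21 above 0) had 5 higher and 2 lower, and all 7 had their best hit outside the rose family. The members with a *Prunus* best hit were abundant, and all 3 lay within 1 and below 0. The acidic protein P3-2 (DN25591_c0_g1) had 604 FPKM in abnormal fruits against 775 FPKM in normal fruits (−0.36).

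In the 16 lists other than the receptor-like kinases, neither count was as much as 3 unigenes away from the number that the shares over all listed unigenes would give. Counting members at 0 in both groups, the list medians were at most 0.24 in size, that of the receptor-like kinases, against 0 over all 8676 unigenes, and with an added value of 0.1 they were at most 0.37. Many members are at 0 in both groups, which holds these medians near 0. Over the members above 0 in a group, the median was 1.01 for the 4 of the gibberellin, cytokinin and abscisic acid list, 0.88 for the 13 receptor-like kinases and −0.45 for the 8 of protein folding. The other lists lay between −0.18 and 0.28, and all 5615 listed unigenes above 0 in a group had a median of 0.15.

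Further annotated unigenes with at least 5 FPKM in a group stood out at both ends. The largest rises with a Swiss-Prot name were DN46277_c0_g1 (4.55), DN12512_c0_g1 (3.69) and DN14731_c0_g1 (3.06). They had 22.3, 11.9 and 7.36 FPKM in abnormal fruits and 0 in normal fruits, with best hits outside the rose family. DN16308_c0_g1, with a fungal best hit, was at 0 in abnormal and 5.13 FPKM in normal fruits (−2.62). Its order was reversed at 27 DAF, at 5.61 FPKM in abnormal and 0 in normal fruits. Cysteine proteinase inhibitor 5 (DN16037_c0_g1), a cystatin that blocks papain-like proteases, had 12.6 FPKM in abnormal fruits against 3.54 FPKM in normal fruits (1.58). Ammonium transporter 1 member 1 (DN22943_c5_g2) had 4.97 against 15.2 FPKM (−1.44), and it was lower at 27 DAF too, with 0.956 against 7.66 FPKM (−2.15). A cytochrome P450, DN27852_c1_g1, was at 0 in abnormal fruits and 19.3 FPKM in normal fruits, while at 27 and 37 DAF it was at 22.1 and 30.8 FPKM in abnormal fruits and 0 in normal fruits. Such an alternation with 0 was seen for LOB12 as well. Among the unigenes with a *Prunus* protein hit but no Swiss-Prot name, picked out once their values were known, a non-specific lipid-transfer protein (DN15649_c0_g1) had 117 FPKM in abnormal fruits against 321 FPKM in normal fruits (−1.45). A WRKY61-like factor of the same kind (DN16000_c0_g1) had 24.8 FPKM in abnormal fruits against 5.39 FPKM in normal fruits (2.02). It was at 0 in both groups at 27 DAF. At 37 DAF its order was the opposite, at 0 in abnormal and 4.69 FPKM in normal fruits (−2.51).

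Most of the largest differences belonged to unigenes without a name. So do most listed unigenes, since annotation entries are held for only 753 of the 8676. Among unigenes above 0 in both groups, DN25554_c0_g5 had the largest difference upward, with 131 FPKM in abnormal fruits against 16.7 FPKM in normal fruits (2.91). At 27 DAF its order was the opposite, at 54.2 FPKM in abnormal fruits against 232 FPKM in normal fruits (−2.08). Next came DN23895_c1_g3 (2.46) and DN17443_c0_g1 (2.44), which were also lower in abnormal fruits at 27 DAF (−1.34 and −2.33). The other 5 of the 8 largest lay between 2.25 and 2.29.

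At the other end, DN27529_c3_g1 had 46.3 FPKM in abnormal fruits against 467 FPKM in normal fruits (−3.31). DN21037_c0_g1 followed POD44 with 62.3 against 492 FPKM (−2.96), and DN26404_c9_g1 had 97.8 against 515 FPKM (−2.38). At 37 DAF, the first had 241 FPKM in abnormal fruits against 311 FPKM in normal fruits (−0.37), the second 380.5 against 249 FPKM (0.61) and the third 307 against 393 FPKM (−0.36). All 8 of the unigenes with the largest differences downward lay within 1 at 37 DAF, where their values in abnormal fruits were between 14.0 and 380.5 FPKM.

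**Figure D4:**
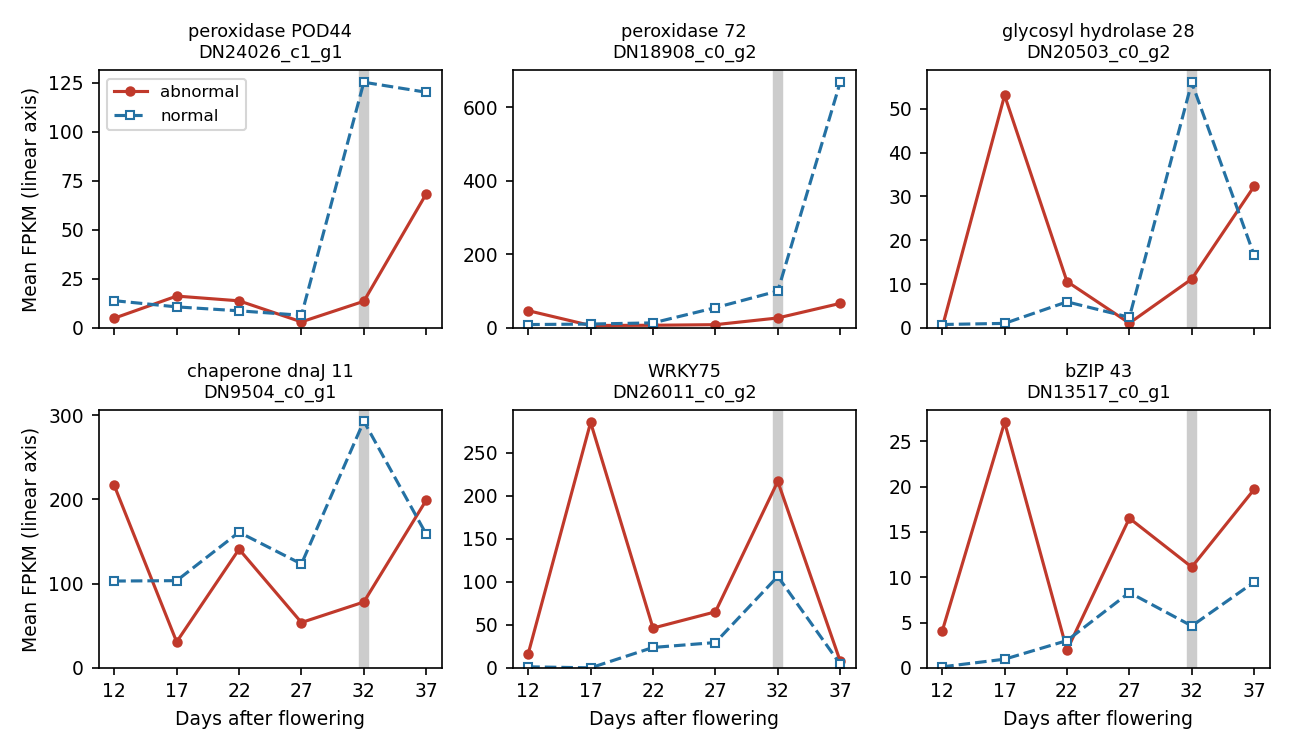
Mean FPKM of 6 named unigenes over the stages from 12 to 37 DAF on linear axes, with abnormal fruits as filled circles and solid lines and normal fruits as open squares and dashed lines, and the grey band at 32 DAF. Each point is 1 group mean without an error. POD44 stood at 13.6 FPKM in abnormal fruits at 32 DAF, before 68.3 FPKM at 37 DAF, and at 125 FPKM in normal fruits at 32 DAF, and peroxidase 72 was lower in abnormal fruits at 27, 32 and 37 DAF.

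The neighbouring stages share no sample with 32 DAF, and the unigenes counted at 32 DAF were followed there. Of the 831 higher unigenes, 85 (10.2%) were higher at 27 DAF, against 8.70% of all listed unigenes, and 266 (32.0%) were lower, against 12.1%. At 37 DAF, 73 of them (8.78%) were higher, against 6.77%, and 105 (12.6%) lower, against 7.76%. Among unigenes higher at 32 DAF, more were thus lower than higher in abnormal fruits at 27 DAF, and the others lay within the threshold there. Of the 548 lower unigenes, 79 (14.4%) were higher and 79 (14.4%) lower at 27 DAF. At 37 DAF, 99 (18.1%) of these were higher and 55 lower.

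Unigenes listed at 0 in both groups of a stage cannot pass the threshold there, and many of the 8676 are, so the counts were repeated for the 3327 unigenes that averaged 5 FPKM or more at 27 and 37 DAF, both fruit types included. The repeat was added once results were known. At 32 DAF, 173 of them (5.20%) were higher and 168 (5.05%) lower, so the excess of higher unigenes was not found here. At 27 DAF, 22 of the 173 (12.7%) were higher, against 6.01% of the 3327, and 66 (38.2%) lower, against 12.8%. At 37 DAF, 20 (11.6%) were higher, against 7.03%, and 18 (10.4%) lower, against 5.83%. For the 168 lower unigenes, 15 (8.93%) were higher and 41 (24.4%) lower at 27 DAF, and 38 (22.6%) were higher and 18 (10.7%) lower at 37 DAF.

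**Figure D5:**
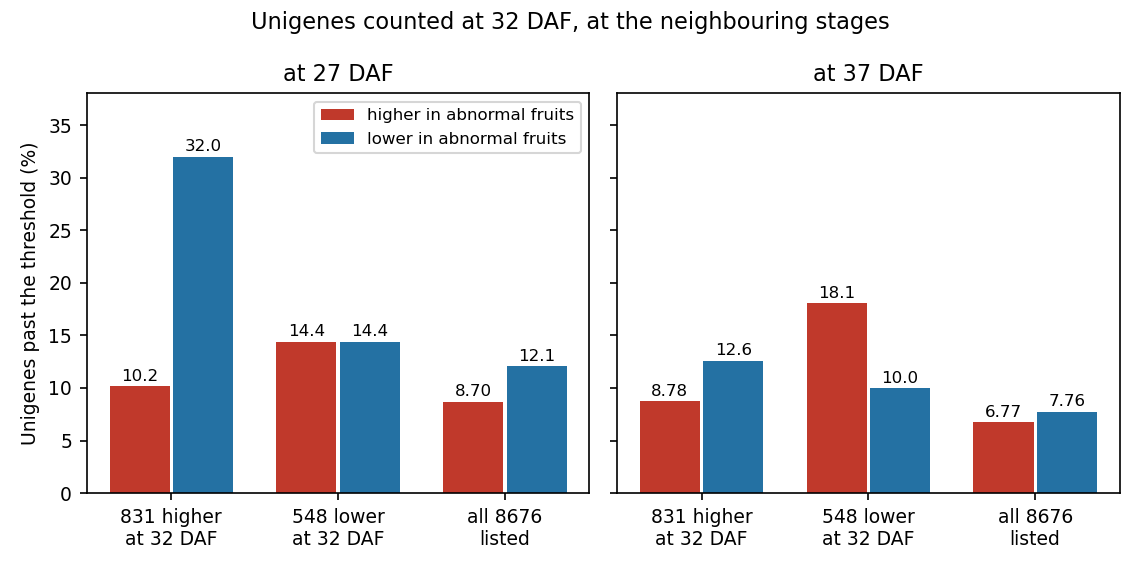
Share of unigenes that passed the threshold of 1 in log2(FPKM + 1), higher or lower in abnormal fruits, at 27 DAF (left) and 37 DAF (right), for the 831 unigenes higher and the 548 lower at 32 DAF and for all 8676 listed. Bars are percentages of each set. At 27 DAF 32.0% of the 831 were lower in abnormal fruits, and at 37 DAF 18.1% of the 548 were higher.

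The median levels of these 173 and 168 unigenes describe the same values. For the 173, the medians in abnormal fruits were 10.8 FPKM at 27 DAF, 19.6 FPKM at 32 DAF and 8.21 FPKM at 37 DAF, and in normal fruits 22.5, 2.04 and 8.14 FPKM in the same order. Of these 3 stages, 32 DAF had the highest median in abnormal fruits and 27 DAF that in normal fruits. For the 168, the medians in abnormal fruits were 9.59, 6.55 and 30.9 FPKM and in normal fruits 13.8, 30.2 and 18.7 FPKM at 27, 32 and 37 DAF. Here the highest median was that of 37 DAF in abnormal fruits and that of 32 DAF in normal fruits. The unigenes were chosen by their difference at 32 DAF, so the medians at that stage follow from the choice. They were also chosen by their mean level at 27 and 37 DAF, so the medians there depend on the choice too. These medians are thus no separate evidence of a timing.

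Across the 8676 unigenes, the Pearson r of log2(FPKM + 1) between abnormal and normal fruits at 32 DAF was 0.902. Leaving that pair aside, the group closest to abnormal fruits at 32 DAF was normal fruits at 27 DAF (0.876), and the other values lay between 0.743 for normal fruits at 12 DAF and 0.841 for abnormal fruits at 22 DAF. The group closest to normal fruits at 32 DAF was abnormal fruits at 22 DAF (0.866), then came abnormal (0.852) fruits of 37 DAF and normal (0.850) fruits of 27 DAF. By Spearman's rho, abnormal fruits at 37 DAF came first for normal fruits at 32 DAF (0.775). Unigenes are not independent replicates, and all groups share 1 assembly and 1 normalization, so these values only describe the columns.

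Among unigenes at 0 in the other fruit type at 32 DAF, some of the highest values belonged to unigenes found in 1 group alone. DN37598_c0_g1 had 285 FPKM and DN53945_c0_g1 162 FPKM in abnormal fruits at 32 DAF, and both were at 0 in the other 11 groups. DN53611_c0_g1 had 149.9 FPKM and DN43355_c0_g1 132 FPKM in normal fruits at 32 DAF, and they too were at 0 elsewhere. DN22414_c1_g3 had 228 FPKM in abnormal fruits and 0 in normal fruits, but between 53.3 and 123 FPKM in all 8 groups from 12 to 27 DAF and 0 in both groups at 37 DAF. How many of the replicates stand behind such a mean was not tested.

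The most abundant unigene, DN23546_c1_g1, had 36278 FPKM in abnormal fruits against 44836 FPKM in normal fruits (−0.31). DN24536_c0_g1 had 12378 against 9292 FPKM (0.41) and DN20837_c0_g1 had 6089 against 7105 FPKM (−0.22), so the 3 most abundant unigenes of both groups lay within the threshold.

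Unigenes whose best protein hit lies outside the land plants were looked at apart, since fruits can carry microbes. In the annotated part, 63 unigenes had such a hit, in algae, fungi or other microbes, of which 28 were above 0 in abnormal and 31 in normal fruits, with summed levels of 148 and 120.1 FPKM. Past the threshold were 12 higher and 9 lower of them, or 33.3%, against 15.9% of all 8676 unigenes. The share was 16.6% of the 427 unigenes with a *Prunus* hit (34 higher, 37 lower), 38.9% of 18 with a hit in other plants of the rose family and 37.5% of 40 with a hit in other land plants, so a high share was not particular to microbial hits. The part of such RNA in the counts was not tested. The 173 unigenes with a best hit in the cabbage family, which were above 0 for 145 unigenes in abnormal fruits and 123 in normal fruits at 12 DAF, were nearly absent at 32 DAF, where 1 was above 0 in abnormal fruits and 0 in normal fruits. Without the unigenes of both classes, 818 unigenes were higher and 539 lower.

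Reads can be divided between unigenes of 1 assembly component, whose IDs agree up to the last number. Of the listed unigenes, 1267 share a component with another, in 593 components, and in 10 of these components members passed the threshold in both directions. WRKY75 is in such a component. Its other member past the threshold, DN26011_c0_g3 (singled out after its values were seen), had 413 FPKM in abnormal fruits against 1016 FPKM in normal fruits (−1.29), so the values of DN26011_c0_g2 are uncertain where reads were divided between them.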

How the data were processed

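Per the methods and the submitters' processing notes, the authors cleaned paired-end reads, assembled them with Trinity, kept the longest transcript as the unigene, aligned reads with Bowtie2, estimated read numbers with RSEM, applied DESeq2's normalization and converted the result to FPKM (versions not given in the sources used here). What they deposited are FPKM values, averaged within each of the 12 groups. The reads behind a value are not known, and no interval for counting error is given. In some group each of the 8676 listed unigenes is at least 1 away from normal fruits at 12 DAF in log2(FPKM + 1), so percentages describe the listed unigenes only. Groups came from the sample titles and column names.

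Groups were compared as log2((abnormal + 1)/(normal + 1)), with a threshold of 1 and no test. Members, lists and comparisons were chosen with earlier results of these data known. The 17 lists came from name searches, which also catch some unrelated names and were not trimmed. Named unigenes were drawn from the 25 of the study and the 8 above 0 in both groups with the largest differences each way. Further sources were the 10 largest each way with a Swiss-Prot name and at least 5 FPKM, and list members past the threshold. The last sources were the 3 highest in each group at 0 in the other, and the 3 most abundant. Not all of these unigenes are described. List members within the threshold and those marked so were singled out after their values were seen. None of the unigene IDs was found in the reference gene table, and no coordinates are given.

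Alternatives were added values of 0.1 and 5, minimum levels of 1 and 5 FPKM, the 2 scalings, a threshold of 2 and Spearman's rho. The counting was tested on simulated data over 8676 unigenes at 32 DAF and recovered 200 of 200, with 0 others. The changed unigenes were all well expressed, with changes well beyond the threshold and little noise. The test therefore checks the arithmetic only and says nothing about unigenes near or at 0. Python 3.11.15, numpy 2.4.6, pandas 2.3.3 and matplotlib 3.10.9 were used. The phenotype and RT-qPCR data were not used here.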

Additional observations from a re-analysis of the deposited data

How the results depend on the processing

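The numbers of higher and lower unigenes depended on the added value, the threshold and the minimum level. With an added 0.1 there were 1299 higher and 809 lower, and with 5 there were 278 higher and 230 lower. A threshold of 2 gave 329 higher and 213 lower, and a minimum of 5 FPKM in the higher group gave 369 higher and 304 lower. With both scalings, both numbers stayed within 1.5 times. A minimum of 1 FPKM could change neither number, since a unigene past the threshold must exceed 1 FPKM in its higher group. Without the unigenes of microbial or cabbage family hits, 818 were higher and 539 lower. Only the 753 annotated unigenes could be left out by such a hit, so these numbers could not move far. The share of higher among all called unigenes was 60.3%, and under the alternatives it lay between 54.7% and 62.3%. Among unigenes lower at 32 DAF, the shares at 27 DAF changed to 8.93% higher and 24.4% lower with a mean of at least 5 FPKM at 27 and 37 DAF. By Spearman's rho, the likeness of 32 DAF abnormal fruits to normal fruits of 27 DAF was 0.815, and that of 32 DAF normal fruits to abnormal fruits of 22 DAF was 0.754. Of the 72 unigenes chosen for naming that had a difference over 1, 32 came within the threshold with an added 5. Not all of the 72 are described above. That 0 of them changed sign under the added values and scalings was fixed in advance. An added value cannot turn a sign, and both scalings shift the differences by far less than 1. The cause of these changes was not tested. No paired analysis was possible because the columns hold the authors' means and no value per replicate, and for the same reason leaving out a replicate was not run.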
